A study of Rattus norvegicus with 12 samples.

Results

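Tmod1, Fancd2, Timm8a2, Ptprq, Doc2a and Nmbr are 6 genes whose transcripts were lower in the kidney cortex of rats dosed with the solvent tert-butyl alcohol (TBA). They were chosen from the measured difference between TBA and vehicle rats, Doc2a and Nmbr on the isoflurane arm and the other 4 on the average over both anesthetics, so that difference is given as a description with no test. The 6 genes are read by 11 of the 61657 non-control probes of the array, and 10 of these 11 passed the filter on dim probes, which kept 40216 probes and, after 1 probe was taken per gene, 29603 features, 11689 of them genes with a symbol. The second Nmbr probe did not pass. A probe could pass through the group where it was bright alone, so the number that passed says nothing about a difference.

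The study took renal cortex RNA from 12 rats, male Sprague-Dawley animals bought at 5 weeks of age, with 1 one-colour array per rat and 3 rats per group. The groups were TBA at 1000 mg/kg/day for 4 weeks, killed under isoflurane; water (vehicle) for 4 weeks, killed under isoflurane; TBA at the same dose for 4 weeks, killed under CO2-O2; and vehicle for 4 weeks, killed under CO2-O2. The series' design text calls the rats of a group biological replicates, and the labels give 1 dose and 1 duration, so nothing here bears on other doses or times. Renal cortex holds many cell types, and in such bulk RNA fewer cells of a type and less RNA per cell cannot be told apart.

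The 6 genes share no single pathway. Tmod1 makes a tropomodulin, which caps the slow-growing, pointed end of actin filaments in muscle and in the membrane skeleton of red cells and epithelia. Fancd2 is the central protein of the Fanconi anemia pathway for the repair of DNA crosslinks, and it works paired with Fanci. Timm8a2 belongs to the small TIM chaperones, which carry membrane proteins across the space between the mitochondrial membranes. Ptprq makes a receptor-type phosphatase known from the stereocilia of inner ear hair cells and, in the rat, from mesangial cells of the glomerulus, and Doc2a makes a calcium sensor of vesicle release best known in neurons. Nmbr is the receptor for the peptide neuromedin B and signals through Gq proteins.

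The RefSeq promoter table (GRCr8) held an entry for 4 of the 6 genes. The windows of Tmod1 and Timm8a2 are shown because these had the 2 largest averaged differences among the 4, and because they differ in base composition, 71.2% G and C in Tmod1 and 45.6% in Timm8a2. Each is the 250 bases before the listed start, 5′ to 3′ on the plus strand. Capitals mark matches, on either strand, to the TATA box (TATAAA), the CCAAT box (CCAAT), the GC box (GGGCGG) or the ETS site (CTTCCGG).
Tmod1, chr5:65111812-65112061: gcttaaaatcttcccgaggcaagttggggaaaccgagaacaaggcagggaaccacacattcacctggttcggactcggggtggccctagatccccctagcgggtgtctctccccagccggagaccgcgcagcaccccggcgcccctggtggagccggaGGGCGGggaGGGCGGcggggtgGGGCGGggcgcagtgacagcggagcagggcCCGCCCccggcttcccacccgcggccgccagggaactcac
Timm8a2, chr15:105533808-105534057: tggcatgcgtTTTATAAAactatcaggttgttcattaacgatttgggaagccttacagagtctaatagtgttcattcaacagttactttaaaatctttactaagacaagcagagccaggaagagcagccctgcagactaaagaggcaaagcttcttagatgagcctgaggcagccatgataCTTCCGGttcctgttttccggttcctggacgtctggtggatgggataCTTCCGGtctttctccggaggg
The Tmod1 window held 4 GC boxes and none of the other motifs. The Timm8a2 window held 2 ETS sites and 2 overlapping TATA box matches, 1 on each strand. The Fancd2 window held 1 GC box and 1 ETS site, and the Nmbr window held no match to any of the 4. Over all 33469 windows of the same length in the table, 30.5% held a GC box, 7.3% an ETS site, 12.9% a TATA box and 34% a CCAAT box, and 1.1% held 2 or more ETS sites. A match describes letters in the window and does not show that a factor binds there.

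The values below are log2 levels: the log2 of a probe's background-subtracted signal over the 75th percentile of its array, so that 0 is the level of that percentile and each step of 1 is a doubling. A level can be set against the same probe on other arrays, not against another probe. "Well above background" is the scanner software's own flag for a spot. The flag was set for 61.6% to 71.0% of probes per array, and r between arrays of 1 group was 0.983 to 0.993 over all non-control probes with a value on every array. The tissue label was checked against markers: all 8 proximal tubule markers and all 7 podocyte markers were measured well above background on all 12 arrays. Of the proximal tubule markers 7 of 8 were higher in TBA rats in the averaged effect (median 0.19, 5 at an unadjusted p under 0.05), and 1 passed, the organic anion transporter Slc22a8 (0.38 ± 0.06, limma, adjusted p = 0.0292). Over all features 19% had an unadjusted p under 0.05 in this contrast and 1.88% passed (limma). The same shares stand beside the counts of the other marker lists below. For each marker list the signals, each over the 75th percentile of its array, were added before the log2 was taken. The brightest genes of a list therefore weigh most. For the proximal tubule markers this log2 of the summed signal ran from 10.33 to 10.48 in TBA isoflurane rats and 10.06 to 10.19 in vehicle isoflurane rats, without overlap. It ran from 10.20 to 10.29 in TBA CO2-O2 rats and 10.08 to 10.22 in vehicle CO2-O2 rats, with overlap. The part of these markers in the differences of the 6 genes was not tested. Replicate numbers are those of the scanner files.

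The arrays lay on 3 slides. Slide 3 held the TBA isoflurane rats. Slide 2 held the vehicle isoflurane rats with TBA CO2-O2 rats 1 and 2, and slide 1 held TBA CO2-O2 rat 3 with the vehicle CO2-O2 rats. Scan day 1 was that of slide 1, and slides 2 and 3 shared scan day 2. Under isoflurane, TBA and slide therefore cannot be told apart, and under CO2-O2 the slides are shared by TBA rat 3 and the vehicle rats alone.

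Among structural genes, Tmod1 had log2 levels of -3.42, -3.91 and -3.64 in TBA isoflurane rats 1 to 3, against -2.32, -1.35 and -2.72 in vehicle isoflurane rats 1 to 3. Its levels were -3.92, -4.57 and -3.58 in TBA CO2-O2 rats, against -2.27, -2.48 and -2.60 in vehicle CO2-O2 rats. All 6 TBA rats lay below all 6 vehicle rats, with 0.71 between the highest TBA rat and the lowest vehicle rat, and vehicle isoflurane rat 2 stood above the others of its group. The Tmod1 difference was -1.53 ± 0.34 under isoflurane and -1.57 ± 0.34 under CO2-O2 (log2, SE from limma, n = 3 rats a group), which is 34.7% and 33.7% of the vehicle level.

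Tmod1 has a second, dimmer probe that differed less. It averaged -5.18 ± 0.50 in TBA isoflurane rats and -4.03 ± 0.34 in vehicle isoflurane rats, and -5.21 ± 0.58 in TBA CO2-O2 rats and -4.68 ± 0.33 in vehicle CO2-O2 rats (SD, n = 3 each). Its groups did not overlap under isoflurane (difference -1.14) and overlapped under CO2-O2 (difference -0.53). It was flagged as well above background in 1 TBA isoflurane rat and 2 TBA CO2-O2 rats, against all 6 vehicle rats. Red cells carry tropomodulin. The log2 of the summed signal of 8 markers ran from 8.93 to 9.46 in TBA isoflurane rats and 8.70 to 9.02 in vehicle isoflurane rats. It ran from 9.07 to 9.65 in TBA CO2-O2 rats and 9.31 to 9.39 in vehicle CO2-O2 rats. None of the 8 passed the test for the averaged TBA effect (limma; 0 at an unadjusted p under 0.05). Rhag, another red cell marker, was well above background on no array. For 8 markers of skeletal and heart muscle the log2 of the summed signal ran from 1.67 to 1.87 in TBA isoflurane rats. It ran from 2.02 to 2.16 in vehicle isoflurane rats, without overlap. Under CO2-O2 it ran from 1.67 to 2.12 in TBA rats and 1.60 to 1.74 in vehicle rats, with overlap. In the averaged TBA effect 6 of the 8 were higher and 2 lower, and none passed (limma, 1 at an unadjusted p under 0.05). Their part in the Tmod1 difference was not tested.

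**Figure D1:**
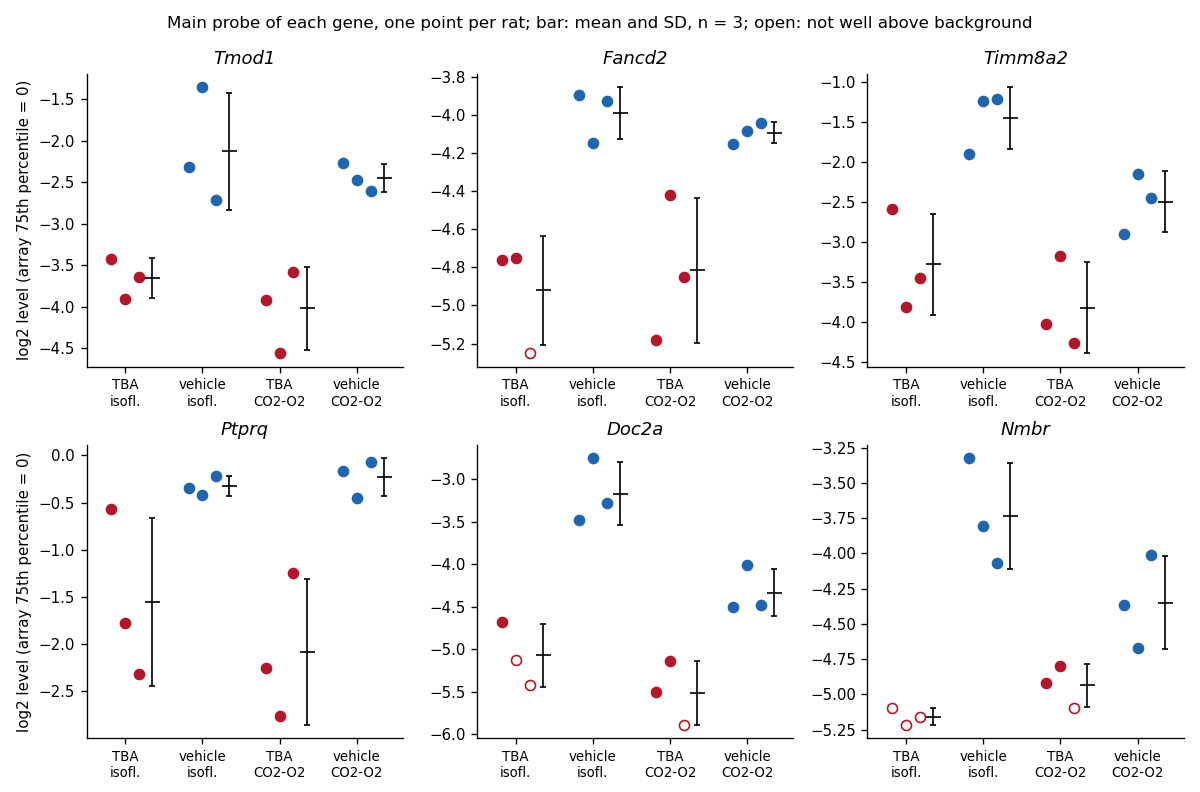
Log2 level of the main probe (vertical axis, array 75th percentile at 0) for each of the 12 rats in the 4 groups; bars give the mean and SD of 3 rats, and open circles are spots not well above background. The TBA rats sit below the vehicle rats of the same anesthetic in all 6 panels, and Ptprq in TBA isoflurane rat 1 (-0.57) is higher than in the other TBA rats.

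The membrane phosphatase Ptprq had the widest spread among TBA rats. Its levels were -0.57, -1.77 and -2.31 in TBA isoflurane rats 1 to 3, against -0.34, -0.42 and -0.22 in vehicle isoflurane rats. They were -2.25, -2.76 and -1.25 in TBA CO2-O2 rats, against -0.17, -0.45 and -0.07 in vehicle CO2-O2 rats. The 6 vehicle rats lay within a narrow band, while TBA isoflurane rat 1 was 0.12 below the lowest of them. The SD between rats was 0.89 and 0.77 in the TBA isoflurane and TBA CO2-O2 groups, and 0.10 and 0.20 in the vehicle isoflurane and vehicle CO2-O2 groups. The difference was -1.23 ± 0.44 under isoflurane and -1.86 ± 0.44 under CO2-O2, from the 1 probe of this gene, which was well above background on all 12 arrays. The limma SE pools the spread of the 4 groups, so it lies below what the TBA rats alone would give.

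Glomerular markers were set beside Ptprq. The log2 of the summed signal of 7 podocyte markers ran from 4.99 to 5.36 in TBA isoflurane rats and 5.16 to 5.31 in vehicle isoflurane rats. It ran from 5.19 to 5.49 in TBA CO2-O2 rats and 4.99 to 5.37 in vehicle CO2-O2 rats. For 7 markers of mesangium and vessel wall the ranges were 2.52 to 2.76 and 2.55 to 2.74 in TBA and vehicle rats under isoflurane, and 2.57 to 2.77 and 2.58 to 2.78 in TBA and vehicle rats under CO2-O2. In the averaged TBA effect none of these 14 passed over all features, and Cnn1, an eighth vessel wall marker, was well above background on 1 array. At an unadjusted p under 0.05 there were 1 podocyte and 2 mesangial or vessel wall markers.

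The mitochondrial chaperone gene Timm8a2 is read by 3 probes. The brightest gave -2.58, -3.81 and -3.46 in TBA isoflurane rats 1 to 3, against -1.90, -1.23 and -1.21 in vehicle isoflurane rats. It gave -4.03, -3.18 and -4.27 in TBA CO2-O2 rats, against -2.90, -2.14 and -2.44 in vehicle CO2-O2 rats. Within each anesthetic the groups did not overlap, but the highest TBA isoflurane rat lay 0.32 above the lowest vehicle CO2-O2 rat, since both isoflurane groups stood higher on average. The difference was -1.84 ± 0.37 under isoflurane and -1.33 ± 0.37 under CO2-O2.

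All 3 Timm8a2 probes had close differences, from -1.84 to -1.63 under isoflurane and from -1.35 to -1.21 under CO2-O2. Probes 1 and 2 were well above background on all 12 arrays and probe 3 on 11. The paralog Timm8a1 did not pass the test, at 0.09 ± 0.09 averaged over the anesthetics (limma, adjusted p = 0.625), and its second probe was at -0.15.

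The repair gene Fancd2 had the smallest averaged difference of the 6. Its 1 probe gave -4.76, -4.75 and -5.25 in TBA isoflurane rats 1 to 3, against -3.90, -4.15 and -3.93 in vehicle isoflurane rats. It gave -5.18, -4.42 and -4.85 in TBA CO2-O2 rats, against -4.15, -4.08 and -4.05 in vehicle CO2-O2 rats. All 6 TBA rats lay below all 6 vehicle rats, by 0.27 at the closest, and the spot in TBA isoflurane rat 3 was not well above background. Before background subtraction the median signals were 77.5, 79 and 71 in TBA isoflurane rats (local background 45, 46 and 48). They were 110.5, 93.5 and 102.5 in vehicle isoflurane rats (23, 28 and 24), and 81, 81.5 and 83 in vehicle CO2-O2 rats (26, 24 and 26). The difference was -0.93 ± 0.19 under isoflurane and -0.72 ± 0.19 under CO2-O2. Of 14 markers of proliferating cells, 11 were tested and none passed in the averaged TBA effect (median 0.10, 1 at an unadjusted p under 0.05). The log2 of their summed signal ran from 3.23 to 3.67 in TBA isoflurane rats and 3.15 to 3.42 in vehicle isoflurane rats. It ran from 3.15 to 3.70 in TBA CO2-O2 rats and 3.09 to 3.47 in vehicle CO2-O2 rats. Mki67, Top2a and Mcm5 had no probe matched by accession.

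Doc2a and Nmbr were measured near the limit of the array. For Doc2a the brighter probe gave -4.68, -5.12 and -5.42 in TBA isoflurane rats 1 to 3, against -3.48, -2.76 and -3.28 in vehicle isoflurane rats. It gave -5.51, -5.14 and -5.89 in TBA CO2-O2 rats, against -4.51, -4.02 and -4.49 in vehicle CO2-O2 rats. All TBA rats lay below all vehicle rats, by 0.17 at the closest. The flag was set in 1 TBA isoflurane rat, 2 TBA CO2-O2 rats and all 6 vehicle rats. Before background subtraction the median signals were 66.5, 61 and 60.5 in TBA isoflurane rats (local background 42, 39 and 45). They were 110, 147 and 116.5 in vehicle isoflurane rats (25, 27 and 25.5), and 62.5, 80 and 64 in vehicle CO2-O2 rats (25, 22 and 26). The difference was -1.90 ± 0.26 under isoflurane and -1.18 ± 0.26 under CO2-O2, or 26.8% and 44.2% of the vehicle level.

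The second Doc2a probe was well above background on no TBA array, on 3 of 3 vehicle isoflurane arrays and on 1 of 3 vehicle CO2-O2 arrays. Each TBA array was then given the dimmest signal flagged well above background on it, or the probe's own if higher. With this substitution the probe was 1.1-fold lower in TBA isoflurane rats than in vehicle isoflurane rats. A spot can read above that dimmest signal and still not be flagged, so the value is not a strict lower limit. Under CO2-O2 no such value is given, since 2 of the 3 vehicle arrays were not well above background either. Its measured differences were -1.32 and -1.46 under isoflurane and CO2-O2.

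The receptor gene Nmbr gave -5.10, -5.22 and -5.16 with its brighter probe in TBA isoflurane rats 1 to 3, none of them well above background, against -3.33, -3.80 and -4.07 in vehicle isoflurane rats. It gave -4.92, -4.80 and -5.09 in TBA CO2-O2 rats, against -4.36, -4.67 and -4.01 in vehicle CO2-O2 rats. The spot of TBA CO2-O2 rat 3 was not well above background either. Before background subtraction the median signals were 68, 67.5 and 68 in TBA isoflurane rats, with a local background of 47.5, 43 and 52. They were 123.5, 103 and 86.5 in vehicle isoflurane rats (local background 23, 29 and 25), and 68, 65 and 53 in TBA CO2-O2 rats (26, 26 and 23). All TBA rats lay below all vehicle rats, by 0.13 at the closest. The measured difference was -1.43 ± 0.20 under isoflurane and -0.59 ± 0.20 under CO2-O2. With the substitution just described Nmbr was 2.61-fold lower in TBA isoflurane rats than in vehicle isoflurane rats. The dimmest flagged signals were -5.29 and -5.43 in TBA isoflurane rats 1 and 2, below their unflagged Nmbr spots, which kept their own values. The 2.61-fold value is therefore close to the measured difference and is not a lower limit.

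The second Nmbr probe, left out by the filter, was well above background on 1 array of 12, that of vehicle isoflurane rat 1, at -2.80. The other vehicle isoflurane rats had -5.75 and -6.12 with it, and TBA isoflurane rats -6.43, -6.06 and -6.97. The same rat also had the highest level with the brighter probe. This probe overlapped between TBA and vehicle under isoflurane, and under CO2-O2 no rat of either group had the flag set for it.

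**Figure D2:**
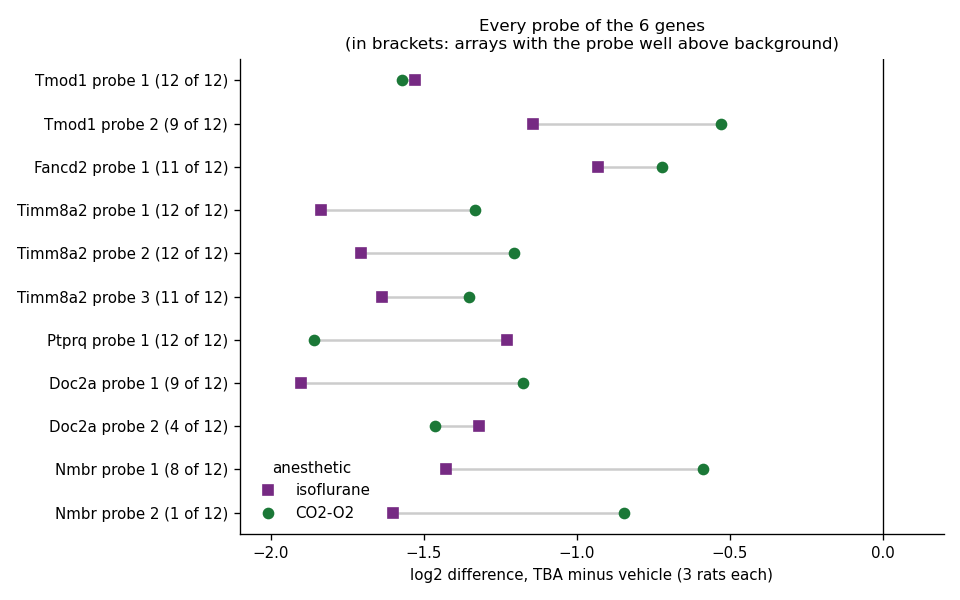
Log2 difference between TBA and vehicle rats (horizontal axis, means of 3 rats) for all 11 probes, with squares for isoflurane and circles for CO2-O2, and in brackets the number of 12 arrays on which the probe was well above background. All 22 differences lie below 0, and the smallest is the second Tmod1 probe under CO2-O2 at -0.53.

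Doc2a and Nmbr are best known from nerve cells. Of 9 markers of neurons and adrenal medulla, Th and Tubb3 were kept, and neither passed in the averaged TBA effect (1 at an unadjusted p under 0.05). The defining markers Dbh, Chga, Chgb, Elavl4 and Nefl were well above background on no array, and Snap25 and Syt1 on 1 array each. The summed log2 level of the 2 kept genes was 0.54 to 0.65 in TBA isoflurane rats and 0.42 to 0.44 in vehicle isoflurane rats, and 0.18 to 0.55 in TBA CO2-O2 rats and 0.09 to 0.24 in vehicle CO2-O2 rats, so that it was higher in TBA rats under isoflurane, without overlap, and overlapped under CO2-O2.

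As background to these descriptions, 0.49% of the 29603 features were called lower in the averaged TBA effect at an adjusted p under 0.05 (limma), 0.145% under isoflurane and 0.0203% under CO2-O2. All 6 TBA arrays lay below all 6 vehicle arrays for 0.524% of features, as they did for the main probes of 5 of the 6 genes, all but Timm8a2. The 3 TBA arrays lay below the 3 vehicle arrays for 9.68% of features under isoflurane and 9.06% under CO2-O2, and for all 6 genes under both. The genes were picked for this contrast, so nothing is read from these counts. The averaged differences were -1.58 for Timm8a2, -1.55 for Tmod1, -1.54 for Ptprq, -1.54 for Doc2a, -1.01 for Nmbr and -0.83 for Fancd2, and the first 4 ranked 43, 45, 46 and 47 from the lowest of all features.

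Within slide 1, TBA CO2-O2 rat 3 was compared with the 3 vehicle CO2-O2 rats beside it. Its log2 difference from their mean was -1.77 for Timm8a2, -1.55 for Doc2a, -1.13 for Tmod1, -1.02 for Ptprq, -0.76 for Fancd2 and -0.75 for Nmbr. That array is a single rat, so these values have no error. On it the spots of the main Doc2a and Nmbr probes were not well above background. With normexp background correction, which adds an offset of 50 to each signal, the averaged differences were closer to 0, at -0.89 for Tmod1, -0.32 for Fancd2, -1.02 for Timm8a2, -0.53 for Doc2a and -0.35 for Nmbr. Ptprq moved least, at -1.29.

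The comparison of isoflurane with CO2-O2, averaged over TBA and vehicle rats, did not enter the choice of the genes and was tested. None of the 6 genes passed over all features (limma; 2 at an unadjusted p under 0.05, and none passed with slide as a random block), where 0.287% of features did and 17.2% had an unadjusted p under 0.05. Doc2a was higher under isoflurane by 0.80 ± 0.19 (95% interval 0.39 to 1.22, adjusted p = 0.0948), and Timm8a2 by 0.80 ± 0.26 (0.21 to 1.39, adjusted p = 0.179). Doc2a averaged -5.07 in TBA isoflurane rats and -5.51 in TBA CO2-O2 rats, and -3.17 in vehicle isoflurane rats and -4.34 in vehicle CO2-O2 rats. Timm8a2 averaged -3.28 in TBA isoflurane rats and -3.83 in TBA CO2-O2 rats, and -1.45 in vehicle isoflurane rats and -2.50 in vehicle CO2-O2 rats. For both genes the isoflurane arrays lay above the CO2-O2 arrays in vehicle rats, as they did for 14.9% of all features, and the groups overlapped in TBA rats. For Nmbr the isoflurane arrays lay below the CO2-O2 arrays in TBA rats, as they did for 7.22% of all features, and the groups overlapped in vehicle rats. Doc2a and Nmbr were chosen on the isoflurane arm, whose values enter these comparisons within TBA or within vehicle rats. For these genes only the average over both treatments is free of that choice, and nothing is read from their overlap within a treatment.

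The other 4 genes were nearer to 0 in the fit without scan day, with intervals that do not exclude a difference. Tmod1 was at 0.34 ± 0.24 (95% interval -0.19 to 0.88, adjusted p = 0.489) and Ptprq at 0.22 ± 0.31 (-0.48 to 0.92, adjusted p = 0.756). Nmbr was at 0.20 ± 0.14 (-0.11 to 0.51, adjusted p = 0.499), and Fancd2 at 0.00 ± 0.13 (-0.30 to 0.30, adjusted p = 0.998). All vehicle CO2-O2 arrays were scanned on day 1 and all isoflurane arrays on day 2. Within day 2, the 3 TBA isoflurane rats minus TBA CO2-O2 rats 1 and 2 gave 0.25 for Doc2a, 0.32 for Timm8a2, 0.59 for Tmod1, 0.95 for Ptprq, -0.12 for Fancd2 and -0.30 for Nmbr. When scan day was added to the fit, the order of the genes differed: Ptprq was at 1.06 (adjusted p = 0.477), Tmod1 at 0.79 (0.536), Doc2a at 0.42 (0.680), Timm8a2 at 0.36 (0.837), Nmbr at 0.04 (0.972) and Fancd2 at -0.03 (0.976).

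**Figure D3:**
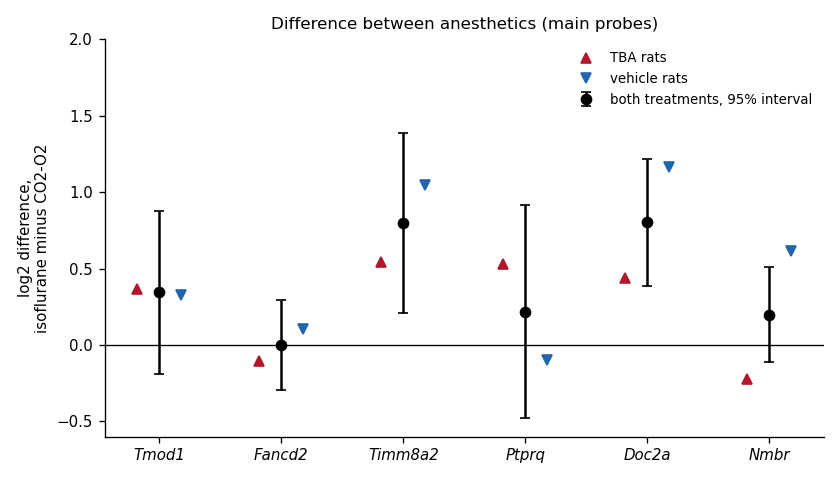
Log2 difference between isoflurane and CO2-O2 rats (vertical axis) for the main probe of each gene: upward triangles for TBA rats, downward triangles for vehicle rats, black points for the average over both with its 95% interval. The intervals of Timm8a2 (0.21 to 1.39) and Doc2a (0.39 to 1.22) lie above 0, and neither gene passed after adjustment over all features.

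Whether the TBA difference itself depended on the anesthetic was tested for the 4 genes chosen on the average. None passed (limma; 0 of the 4 at an unadjusted p under 0.05, and 0% of features called, although 12.1% had an unadjusted p under 0.05). The isoflurane difference minus the CO2-O2 difference was 0.04 ± 0.48 for Tmod1 (95% interval -1.02 to 1.11, adjusted p = 0.979) and -0.21 ± 0.27 for Fancd2 (-0.80 to 0.39, adjusted p = 0.786). It was -0.51 ± 0.53 for Timm8a2 (-1.69 to 0.68, adjusted p = 0.729) and 0.63 ± 0.63 for Ptprq (-0.77 to 2.03, adjusted p = 0.715). For Doc2a and Nmbr, which were chosen on the isoflurane arm, the values of -0.73 and -0.84 are descriptions.

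The other genes of the pathways around the 6 were read from 6 lists. Of 94 genes tested, 50 were higher and 44 lower in the averaged TBA effect, with a median of 0.01, which is also the median over all 29603 features. In all 2 passed, 1 higher and 1 lower, or 2.13% against 1.88% of all features. At an unadjusted p under 0.05 there were 10, or 10.6% against 19% of all features.

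Around Tmod1, none of 16 genes of filament capping and the membrane skeleton passed (median 0.01, 2 at an unadjusted p under 0.05). The other tropomodulins Tmod2, Tmod3 and Tmod4 were at -0.02 ± 0.09, 0.00 ± 0.04 and 0.23 ± 0.08 (adjusted p = 0.936, 0.974 and 0.165). Tmod3, the widely expressed member, averaged 0.47 ± 0.01 in TBA isoflurane rats and 0.43 ± 0.05 in vehicle isoflurane rats, and 0.46 ± 0.03 in TBA CO2-O2 rats and 0.51 ± 0.08 in vehicle CO2-O2 rats (SD, n = 3 each). Around Fancd2, none of 14 genes of the Fanconi anemia pathway passed (median -0.02, 0 at an unadjusted p under 0.05), and Fanci had no probe matched by accession. Ube2t, which attaches ubiquitin to Fancd2, was at 0.52 ± 0.25 (adjusted p = 0.299). Around Timm8a2, none of 14 genes of the TIM chaperones and translocases passed (median 0.06, 1 at an unadjusted p under 0.05).

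Around Ptprq, 2 of 15 receptor-type tyrosine phosphatases passed, and they went in opposite directions. Ptprn2, a phosphatase-like protein of dense-core vesicles, fell by 0.70 (SE 0.08, adjusted p = 0.00694). Its levels were 3.21, 3.08 and 2.86 in TBA isoflurane rats and 3.61, 3.90 and 3.88 in vehicle isoflurane rats, and 3.43, 3.50 and 3.23 in TBA CO2-O2 rats and 4.01, 4.07 and 4.02 in vehicle CO2-O2 rats. No TBA rat reached the level of any vehicle rat. The fall came from 1 of its 4 probes, while a second probe bright on all 12 arrays differed by -0.12 and the others by -0.09 and 0.32. Ptprm, a phosphatase of cell contacts, rose by 0.27 ± 0.05 (adjusted p = 0.0386) with its brightest probe, and its 3 other probes were at -0.24, -0.30 and -0.33, so the direction of Ptprm depends on the probe. It passed under 7 of 23 alternatives, among them 1 of the 12 that leave out an array. Ptpro, the podocyte member, was at 0.11 ± 0.08 (adjusted p = 0.504), with all 3 of its probes between 0.11 and 0.18.

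Around Doc2a, none of 22 genes of vesicle release passed (median 0.02, 2 at an unadjusted p under 0.05), and its paralog Doc2b was at 0.31 ± 0.28 (adjusted p = 0.590). Around Nmbr, none of 13 genes of bombesin-like peptides, receptors and Gq signalling passed (median -0.02, 2 at an unadjusted p under 0.05). The related receptor Grpr, which binds gastrin-releasing peptide, was at -0.64 ± 0.18 (adjusted p = 0.0967) and well above background on 9 of 12 arrays. Grpr gave -4.81, -4.87 and -5.35 in TBA isoflurane rats and -4.63, -5.13 and -4.36 in vehicle isoflurane rats, which overlapped, and -4.66, -5.28 and -5.55 in TBA CO2-O2 rats and -4.05, -4.22 and -4.26 in vehicle CO2-O2 rats, which did not. The ligand gene Nmb was at 0.29 ± 0.42 (adjusted p = 0.748). Its levels ran from -2.61 to -0.80 among TBA isoflurane rats and from -2.42 to -1.17 among vehicle isoflurane rats, and from -2.82 to -0.77 among TBA CO2-O2 rats and from -1.95 to -1.75 among vehicle CO2-O2 rats, so the groups overlapped under both anesthetics.

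**Figure D4:**
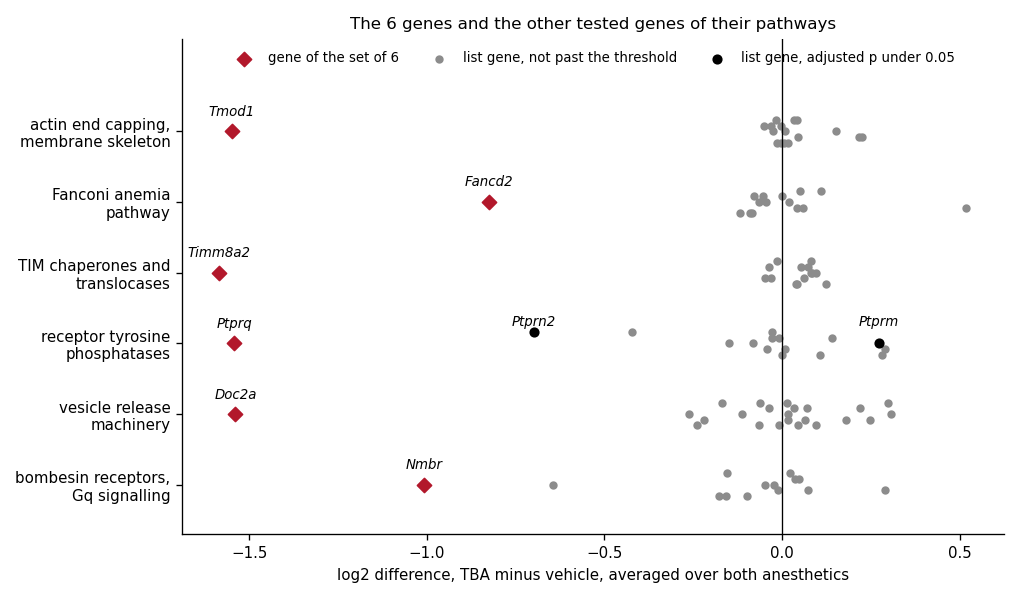
Log2 difference between TBA and vehicle rats averaged over both anesthetics (horizontal axis) for each of the 6 genes (diamonds) and the other tested genes of its list (grey points; black where the adjusted p was under 0.05). The list genes gather around 0, with 2 called, Ptprn2 at -0.70 and Ptprm at 0.27, whose call was kept under 7 of 23 alternatives.

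For each of the 6 genes, the 3 named genes with the most similar pattern were found by Pearson's r over the 12 arrays among 11678 others, with no test, since the group differences enter it. Timm8a2 and Doc2a were each other's closest, at r = 0.966, and their deviations from the group means correlated at r = 0.806. Doc2a was lowest in TBA CO2-O2 rat 3, as was Timm8a2, and both were highest in the vehicle isoflurane group. Among the other pairs of the 6, r over the arrays ran from 0.649 to 0.842 and that of the deviations from -0.522 to 0.389.

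The genes most like Tmod1 were Gas8 (r = 0.952), Rnf26 (0.942) and Mup4l1 (0.933). Mup4l1 carries the name of the major urinary proteins, and its TBA difference was -2.02 under isoflurane and -2.22 under CO2-O2, whereas those of Gas8 were -0.28 and -0.32. The genes most like Fancd2 were Tmem170a (0.928), Pms2, a mismatch repair gene (0.921), and Pros1 (0.901), and those most like Ptprq were Neto2 (0.909), Tubg1 (0.903) and Mtrex (0.899). Neto2 differed by -0.76 under isoflurane and -0.72 under CO2-O2, and Tubg1 by -0.15 and -0.16. After Doc2a, the genes nearest to Timm8a2 were Nol10 (0.938) and Psmd13 (0.929), and after Timm8a2 those nearest to Doc2a were Mbtps1 (0.943) and Tmem63a (0.934). Nmbr was closest to Lmbr1 (0.929), C10h17orf75 (0.874) and Tmem170a (0.870).

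**Figure D5:**
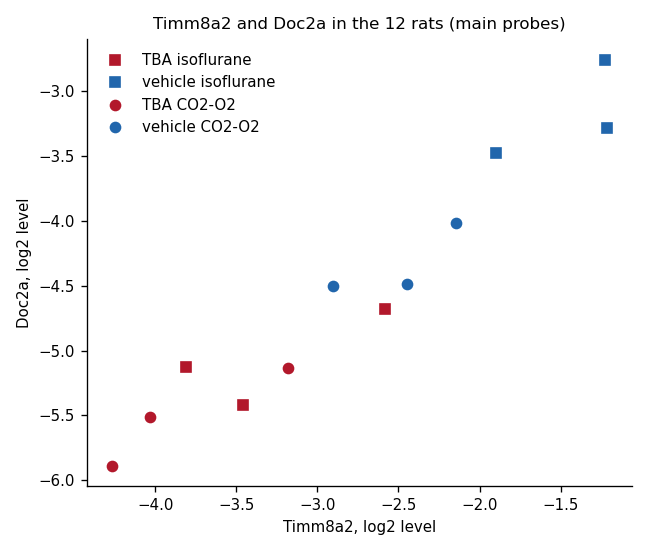
Log2 level of Doc2a (vertical axis) against that of Timm8a2 (horizontal axis), main probes, for each of the 12 rats; colours give the treatment and shapes the anesthetic. The rats lie along a common line from TBA CO2-O2 rat 3 (-4.27, -5.89) to the vehicle isoflurane rats.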

How the data were processed

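Renal cortex RNA of 12 rats was read on 1 one-colour Agilent array each. The authors deposited 1 scanner file per array, with the intensity of each spot as processed by Feature Extraction 10.7, per the submitters' processing notes (10.7.1.1 per the file headers): local background removed, spatial trend removed, no scaling across arrays. The authors' deposited series table holds, on a linear scale, the ratio of a probe's signal to the 75th percentile of its array. This was worked out from the values, whose column medians were 0.101 to 0.107, and direction does not arise with 1 colour. Its columns each matched (r = 1.0000 in log2) a scanner file of the same group but with another replicate number.

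Probes were named by RefSeq accession without version (GRCr8 table, names only): 27460 of 61657 had 1 symbol, 0 several and 34197 none. The value analysed was log2 of the processed signal minus the array's 75th percentile. Control spots and spots flagged as outliers were dropped. Probes well above background on every array of at least 1 group were kept, and the brightest kept probe stood for a gene.

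Group means came from limma 3.58.1 (lmFit and eBayes, R 4.3.3), with 8 residual degrees of freedom and a prior of 1.89, and Benjamini-Hochberg adjustment over all 29603 features at 0.05. P-values measure the spread between these rats, and the number of arrays limits precision. The fit was tested on simulated data.

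The genes, lists and tests were chosen with earlier results of these data known. Named genes were the 6, the closest paralogs, list genes called in the averaged TBA effect, and the 3 most similar genes of each; marker genes and Tmod2, Tmod4 and Ube2t were named after their values were seen. Alternatives were normexp background correction, quantile and median scaling, the submitters' table, averaging all probes of a gene, other filters on dim probes, a random block for slide (statmod 1.5.0, consensus correlation 0.0671), replicate number as a block, a trend with robust spread, and each array left out. Scan day as a fixed term was added after seeing the data.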

Additional observations from a re-analysis of the deposited data

How the results depend on the processing

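The averaged TBA difference of each of the 6 genes stayed below 0 under all 23 alternatives. The genes were chosen for low TBA values in these same arrays, so the kept sign is a description and no test. The median of the averaged difference over the 6 was -1.541, with a range of -1.623 to -1.393 when each array was left out in turn. The median was -0.709 with normexp, whose offset of 50 shrinks differences of dim probes. The parts of the offset and of the changed background correction in that shift were not separated. With scan day as a fixed term, where the CO2-O2 part rests on 1 TBA array, the median was -1.226. The cause of the shift with scan day was not tested. None of the 6 passed in the anesthetic comparison, and none of the 4 in the interaction, under any of the 23 alternatives (adjusted p from 0.0803 to 0.998 and from 0.277 to 0.993).

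Differences near 0 changed sign in places, none of them past the threshold. For Fancd2 the anesthetic difference was 0.007 and the interaction 0.044 with normexp, and the anesthetic difference ran from -0.092 to 0.098 over the left-out arrays. The anesthetic difference of Ptprq ran from -0.028 to 0.428 over the left-out arrays, and its interaction was -0.210 with scan day fixed. The Tmod1 interaction was -0.286 with the mean of probes, -0.026 with slide as a random block, -0.399 with scan day fixed, and from -0.252 to 0.431 over the left-out arrays.

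Of the pathway genes 2 passed. The count was 1 with the mean of probes, with no filter on dim probes, with normexp, with scan day fixed and with the replicate block, and 1 to 2 over the left-out arrays. Ptprn2 passed under all 23 alternatives and Ptprm under 7, including 1 of the 12 that leave out an array; its call was lost when any of the other 11 arrays was left out. Deviations of rats with the same replicate number correlated at -0.133 to 0.133 over 18 pairs (median 0.02, 3 above 0.1). Those of rats with different numbers correlated at -0.191 to 0.222 over 36 pairs (median -0.02, 2 above 0.1). No clear pairing by number was seen, but groups of 3 rats cannot exclude it. The scanner files and the series table also number the rats differently. The replicate block changed no other call. Low signal limits Doc2a, Nmbr, Fancd2 and the second Tmod1 probe.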
